A study of Mus musculus with 12 samples.

Results

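The 10 genes H2-K1, H2-D1, B2m, Tap1, Tap2, Tapbp, Psmb8, Psmb9, Psmb10 and Nlrc5 encode the MHC class I molecule, the machinery that supplies it with peptides and its transcriptional coactivator. They were taken as every row of the deposited expression table whose gene symbol is one of these names, which found all 10 among 22294 genes. RNA had been sequenced from endometrial cells of mice bound by magnetic beads against F4/80, a macrophage surface protein, in 12 libraries, 3 in each of 4 groups. The Sham group had a sham operation and is labelled untreated. The IUA group had modelled intrauterine adhesion, a scarring of the uterine cavity, and its libraries are named Matrigel. The other groups had IUA followed by control MSCs or by primed MSCs, which the series title gives as human umbilical cord mesenchymal stromal cells (hUC-MSCs), the primed ones exposed to inflammatory cytokines. Strain, age, dose, time after treatment and the number of mice behind a library are not given in the sources used here, so p-values measure the spread between these libraries, which may be technical.

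MHC class I molecules sit on the surface of nearly all nucleated cells and show fragments of proteins made inside the cell to CD8 T cells. The proteasome cuts those proteins, the TAP transporter moves the peptides into the endoplasmic reticulum, and tapasin helps to load them onto a heavy chain paired with beta-2 microglobulin. Interferon-gamma is a well-known inducer of the whole pathway and of the immunoproteasome, in which inducible catalytic subunits take the place of constitutive ones.

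Values are FPKM, fragments scaled to transcript length and to the size of the library, as the authors deposited them. Log2 changes are of FPKM + 1, with the standard error (SE) of a limma model fitted to the 11604 genes that reached an FPKM of 1 in 3 or more libraries. A gene is said to rise or fall where its Benjamini-Hochberg adjusted p over those genes was under 0.05. All 10 members passed that filter, with a lowest value of 3.12 FPKM (Nlrc5). The depth of the libraries is unknown, so no interval from counts is given. The labelled cell type was checked against markers. The 10 macrophage markers summed to 9127 to 11547 FPKM in Sham and to 24334 to 29285 FPKM in the other groups. In IUA against Sham 9 of the 10 rose, where 11.1% of all tested genes rose. Adgre1, the gene of F4/80, averaged 223 FPKM in Sham, 434 in IUA, 940 with control MSCs and 1175 with primed MSCs. In primed MSCs against IUA 3 of the 10 rose and none fell, where 12.2% of all tested genes rose and 6.97% fell. The changes of the 10 ran from -0.45 to 1.43, with a median of 0.19. The 3 that rose were Adgre1 (1.43 ± 0.14, adjusted p = 0.00027), Fcgr1 (0.95 ± 0.14, adjusted p = 0.00149) and Csf1r (0.92 ± 0.23, adjusted p = 0.0163, and 0.56 without IUA replicate 3). The 15 markers of uterine epithelium had summed levels of 8239 to 14325 FPKM in Sham, 1643 to 5478 in IUA, 1602 to 4008 with control MSCs and 1603 to 2487 with primed MSCs. All 14 that were tested fell in IUA against Sham, where 45% of all tested genes fell. None of the 14 passed in primed MSCs against IUA, with changes from -0.86 to 0.44. IUA replicate 3 stood apart. Its deviations from the gene means correlated with transcript GC content at a Spearman rho of -0.48 across genes, against -0.18 to 0.22 in the other 11 libraries, and values of the members that moved by over 1.5 times or across the threshold without it are given both ways.

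In mm10, Tapbp, H2-K1, Psmb9, Tap1, Psmb8, Tap2 and H2-D1 lie within the MHC at chr17:33915899-35267499, with Psmb9, Tap1, Psmb8 and Tap2 side by side at chr17:34181987-34216321. B2m lies at chr2:122147686-122153083, Psmb10 at chr8:105935735-105938444 and Nlrc5 at chr8:94434356-94527272. Promoter sequences are shown first because the class I genes carry a compact control region that Nlrc5 and its partners are known to bind. RefSeq promoters of build GRCm38.p6 were found for 8 members and not for Tap2 and Nlrc5. The stretches below come from 5 of them, each upstream of its transcription start: H2-K1 at chr17:34000349-34000468 (minus strand), H2-D1 at chr17:35262913-35263055 (plus strand), B2m at chr2:122147540-122147648 (plus strand), the 226 bases between the Psmb9 and Tap1 starts at chr17:34187330-34187555 (plus strand, towards Tap1) and Psmb8 at chr17:34198088-34198116 (plus strand). Capitals mark matches, on either strand, to the core bound by interferon regulatory factors (AANNGAAA), the NF-kB consensus, the X2 box core (TGACG, a CREB-type site), the Y box (CCAAT, an NF-Y site) and the GAS element (TTCNNNGAA, an interferon-gamma-activated site).
H2-K1: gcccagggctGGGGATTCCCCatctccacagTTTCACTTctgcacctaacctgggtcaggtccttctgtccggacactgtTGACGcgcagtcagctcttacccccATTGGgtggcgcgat
H2-D1: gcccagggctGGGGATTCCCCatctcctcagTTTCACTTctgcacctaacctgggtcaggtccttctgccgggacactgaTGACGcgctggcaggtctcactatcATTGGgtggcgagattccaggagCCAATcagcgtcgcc
B2m: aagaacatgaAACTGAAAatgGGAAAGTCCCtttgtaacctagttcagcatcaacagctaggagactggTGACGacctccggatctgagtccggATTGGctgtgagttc
Psmb9 to Tap1: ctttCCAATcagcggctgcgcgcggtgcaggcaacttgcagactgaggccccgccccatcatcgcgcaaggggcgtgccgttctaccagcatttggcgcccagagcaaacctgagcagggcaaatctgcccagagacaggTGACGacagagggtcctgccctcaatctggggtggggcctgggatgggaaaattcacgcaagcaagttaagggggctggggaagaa
Psmb8: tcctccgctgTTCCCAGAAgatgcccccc

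H2-K1, H2-D1 and B2m each held an NF-kB match, an IRF core, an X2 box and, downstream of it, a reversed Y box. In all 3 the X2 box and the reversed Y box began 25 bases apart, from the first base of one to the first base of the other. Of 32851 RefSeq promoters of the same length (250 bases before to 50 after the start), 31 or 0.0944% held that pair at that spacing on either strand, a search set up after the sequences had been seen. Single motifs were common: 37.4% of all promoters held a Y box, 23.9% an IRF core, 20.8% an X2 box, 8.30% a GAS element and 5.805% an NF-kB match. In H2-K1 and H2-D1 there are 2 NF-kB matches, shifted by a base, and no match of one motif overlapped a match of another. The Psmb9 and Tap1 genes are transcribed away from each other, and the stretch between their starts held an X2 box and a Y box at another spacing. Psmb8 held a GAS match alone, Tapbp held Y boxes alone and Psmb10 held none of these letters in its window. A match describes the letters and does not show that a factor was bound.

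**Figure D1:**
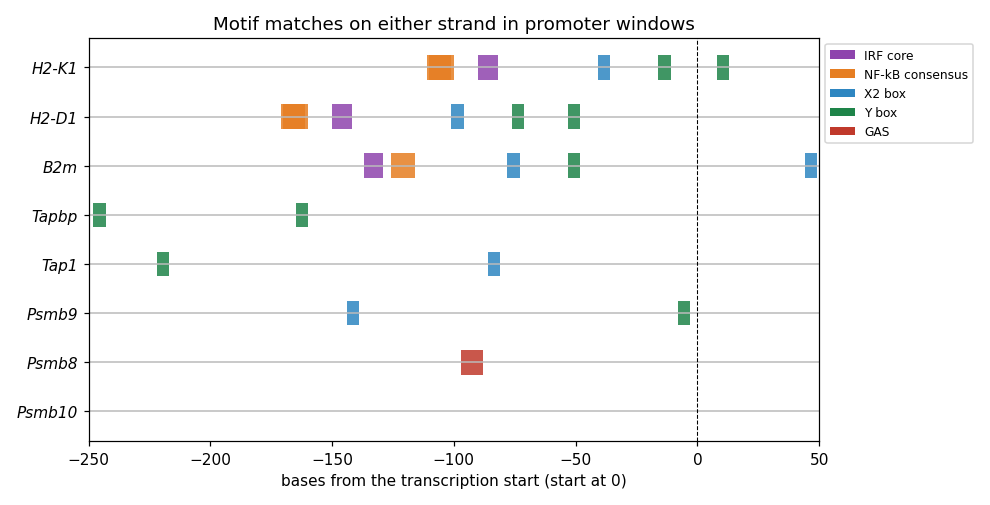
Motif matches in the promoter windows of 8 members. The x axis gives the distance from the transcription start in bases and coloured blocks mark matches on either strand; in H2-K1, H2-D1 and B2m the X2 box and the next Y box begin 25 bases apart.

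The class I heavy chains and their partner stood at a higher level in every IUA library than in any Sham library, with or without MSCs. B2m, the invariant light chain that every class I heavy chain needs to reach the surface, was at 2689, 2064 and 1786 FPKM in the Sham libraries. In the IUA libraries it was at 3860, 4112 and 4549 FPKM, with control MSCs at 3864, 4390 and 4542 FPKM, and with primed MSCs at 4450, 4040 and 4310 FPKM. The Sham libraries lay apart below, and the other 3 groups overlapped. B2m rose in IUA against Sham by 0.95 ± 0.14 (log2 change ± SE, limma adjusted p = 0.000295, higher in 3 of 3 libraries than any Sham library), and its change from IUA to primed MSCs was 0.03 ± 0.14 (adjusted p = 0.885), or 0.10 without IUA replicate 3. Macrophage and epithelial markers also moved in IUA against Sham, as given above. In RNA from bulk sorted cells, fewer cells of a type and less RNA per cell cannot be told apart.

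H2-K1, the K heavy chain, was at 662, 622 and 554 FPKM in Sham. It was at 1057, 969 and 912 FPKM in IUA, at 890, 912 and 914 FPKM with control MSCs, and at 1072, 882 and 913 FPKM with primed MSCs. Again Sham lay below, and IUA and the MSC groups, whose means were between 906 and 979 FPKM, did not differ beyond their spread. The rise from Sham to IUA was 0.68 ± 0.10 on the log2 scale (adjusted p = 0.000354), and the change from IUA to primed MSCs was -0.04 ± 0.10 (adjusted p = 0.822), or -0.09 without IUA replicate 3, a value that turned positive under 2 other scalings of the table. H2-D1, the D heavy chain, was at 1666, 1454 and 1381 FPKM in Sham and at 2667, 2427 and 1722 FPKM in IUA, where replicate 3 was close to the highest Sham library. It was at 2382, 2624 and 2415 FPKM with control MSCs and at 3006, 2848 and 2785 FPKM with primed MSCs. The primed libraries lay above all others. H2-D1 rose in IUA against Sham by 0.58 ± 0.15 (adjusted p = 0.00551), which was 0.77 without IUA replicate 3, and under quantile normalization the change was 0.32 with an adjusted p of 0.0979. Against IUA its primed value was 0.37 ± 0.15 higher (adjusted p = 0.0989), which was 0.18 without IUA replicate 3 (adjusted p = 0.314). That difference passed without IUA replicate 1 (0.49, adjusted p = 0.0354) and under quantile normalization (0.50, adjusted p = 0.0346). The heavy chains share sequence with other H2 genes: of the 50-base stretches of their transcripts, 9.63% of those of H2-K1 and 12.8% of those of H2-D1 also occur in another gene, so reads may have been split between copies and these levels are uncertain.

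The 3 class I chains were the most abundant members per length, and with the rest they made up 0.815% to 1.03% of all FPKM in the Sham libraries. The members' summed share was 1.34% to 1.46% in IUA, 1.39% to 1.53% with control MSCs and 1.56% to 1.74% with primed MSCs. The ranges with primed MSCs and with Sham lay apart from the others, and those of IUA and control MSCs overlapped. Most of this share was that of H2-K1, H2-D1 and B2m. They made up 1.27% to 1.37% in IUA, 1.31% to 1.43% with control MSCs and 1.44% to 1.60% with primed MSCs. None of these chains passed by itself in primed MSCs against IUA. The plot of each gene by library shows these levels.

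**Figure D2:**
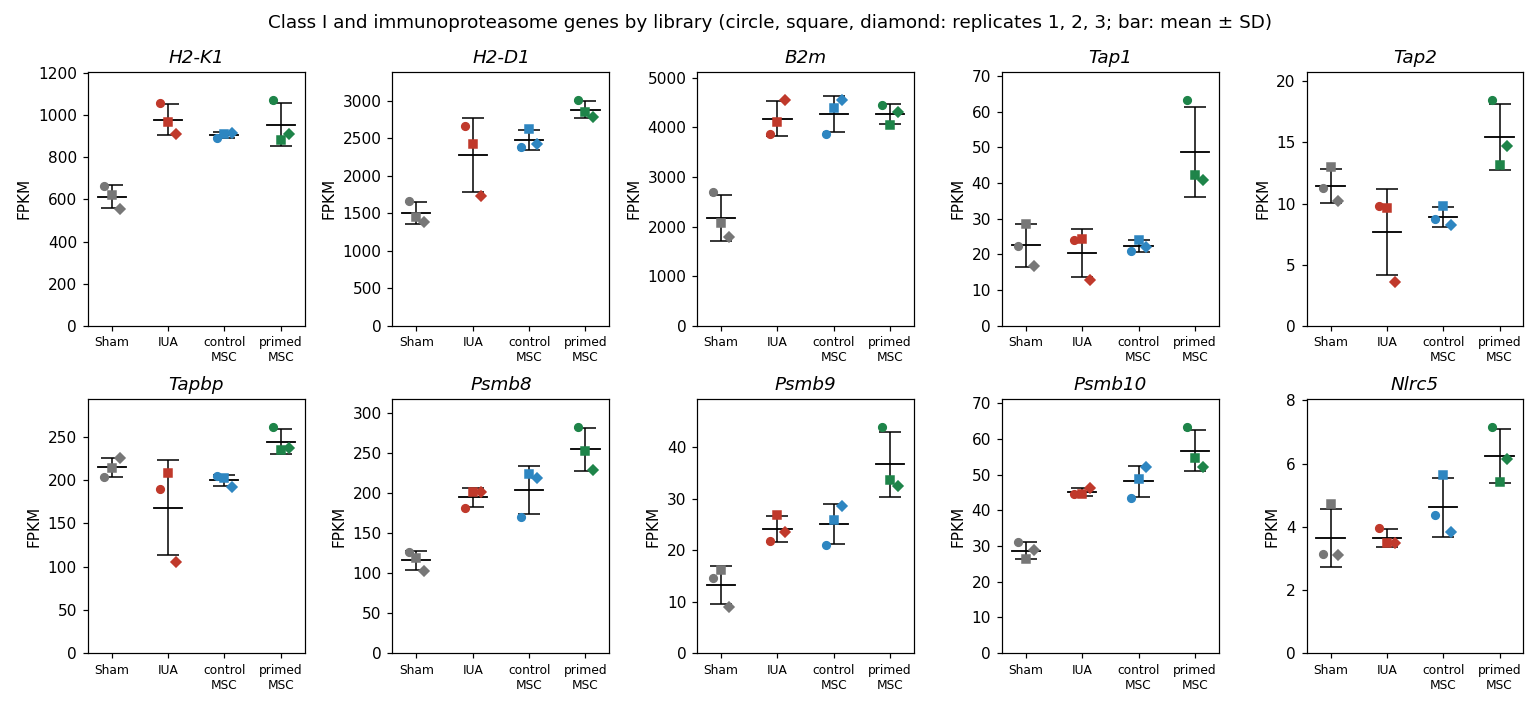
FPKM of the 10 members in the 12 libraries (y axis, linear from 0; x axis, group). Symbols are replicates 1 to 3 and bars the mean ± SD of 3 libraries; B2m and H2-K1 separate Sham from the rest, while Tap1 separates primed MSCs (41 to 63 FPKM) from all others (13 to 29 FPKM).

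The transporter and tapasin followed another order. None of the 3 passed in IUA against Sham, and their levels were highest with primed MSCs. Tap1, a subunit of the TAP peptide pump, was at 22.2, 28.6 and 16.7 FPKM in Sham and at 24.2, 24.2 and 12.7 FPKM in IUA. It was at 20.9, 24.1 and 22.1 FPKM with control MSCs and at 63.2, 42.1 and 40.8 FPKM with primed MSCs. The primed libraries lay above the other 9, which overlapped among themselves. Tap1 rose by 1.24 ± 0.25 from IUA to primed MSCs (adjusted p = 0.00699), from a mean of 20.4 ± 6.61 to 48.7 ± 12.6 FPKM (SD, n = 3, limma). It passed under all 28 alternatives tried, with adjusted p between 0.00512 and 0.0417 and log2 changes between 0.85 and 1.39. Against control MSCs the difference was 1.06 ± 0.25 (adjusted p = 0.139), and it passed where IUA replicate 3 was left out of the model (adjusted p = 0.0242). Its difference between IUA and Sham was -0.16 ± 0.25 (adjusted p = 0.610) and changed sign under 2 other scalings and without IUA replicate 3 (0.13).

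Tap2, the other TAP subunit, was at 11.2, 13.0 and 10.2 FPKM in Sham and at 9.78, 9.63 and 3.58 FPKM in IUA. It was at 8.73, 9.82 and 8.23 FPKM with control MSCs and at 18.5, 13.2 and 14.7 FPKM with primed MSCs. All 3 primed libraries were above every other library, and IUA replicate 3 was far below its group. The rise from IUA to primed MSCs was 1.02 ± 0.27 (adjusted p = 0.0233). Without IUA replicate 3 it was 0.61 and still passed, and with a GC correction as well it was 0.43 with an adjusted p of 0.111. The call was lost without primed replicate 1 (0.89, adjusted p = 0.0887) or primed replicate 3 (adjusted p = 0.0564). Tapbp, the gene of tapasin, was at 204, 214 and 226 FPKM in Sham, at 190, 209 and 106 FPKM in IUA, at 204, 203 and 192 FPKM with control MSCs and at 261, 235 and 237 FPKM with primed MSCs. IUA replicate 3 had less than any other library. The rise from IUA to primed MSCs, 0.60 ± 0.19 (adjusted p = 0.0493), was 0.29 without IUA replicate 3 (adjusted p = 0.0554) and 0.29 with a GC correction (adjusted p = 0.176). It was lost in 10 of the 12 fits that left out a library. In IUA against Sham, Tap2 changed by -0.62 ± 0.27 (adjusted p = 0.0689) and Tapbp by -0.41 ± 0.19 (adjusted p = 0.0880), and neither passed. Without IUA replicate 3 these changes were -0.21 and -0.11 (adjusted p = 0.254 and 0.318). Tap2 passed as a fall on TPM, a rescaling of each library to the same total (adjusted p = 0.0386), with a replicate block (0.0496) and without IUA replicate 1 (0.0302) or 2 (0.0311). Tapbp passed as a fall on TPM (adjusted p = 0.0380) and without IUA replicate 2 (0.0192), and its sign turned with a GC correction (0.13). Over all alternatives the adjusted p ran from 0.0302 to 0.759 for Tap2 and from 0.0192 to 0.988 for Tapbp. Of the exonic bases of Tapbp, 24.9% lie opposite Gm19412, and 14.1% of those of Tap2 lie opposite Gm15821. The library protocol does not mark strand, so reads from such partners cannot be told apart.

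All 3 immunoproteasome subunits rose in IUA against Sham. Every primed library lay above every IUA library for each of them, but none of the 3 passed in primed MSCs against IUA. Psmb8, the inducible chymotrypsin-like subunit, was at 126, 119 and 103 FPKM in Sham and at 182, 201 and 201 FPKM in IUA. It was at 170, 224 and 219 FPKM with control MSCs and at 283, 252 and 229 FPKM with primed MSCs. The IUA and control MSC libraries overlapped, and those of Sham below and of primed MSCs above did not overlap with them. Psmb8 rose in IUA against Sham by 0.75 ± 0.13 (adjusted p = 0.000552). With primed MSCs it was a further 0.38 ± 0.13 above IUA, which did not pass (adjusted p = 0.0527), and 1.13 ± 0.13 above Sham (adjusted p = 2.91e-05).

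Psmb9, the inducible subunit that takes the place of Psmb6, had the lowest level of the inducible subunits. It was at 14.7, 16.1 and 9.03 FPKM in Sham, at 21.9, 26.8 and 23.6 FPKM in IUA, at 20.9, 26.0 and 28.6 FPKM with control MSCs and at 43.9, 33.7 and 32.5 FPKM with primed MSCs. The order of the groups was that of Psmb8. Psmb9 rose by 0.85 ± 0.20 in IUA against Sham (adjusted p = 0.00343) and by 1.43 ± 0.20 with primed MSCs against Sham (adjusted p = 0.000106), and against IUA the primed difference was 0.58 ± 0.20 (adjusted p = 0.0581). Psmb10, the inducible trypsin-like subunit, lies on another chromosome and was at 31.2, 26.3 and 28.8 FPKM in Sham. It was at 44.5, 44.8 and 46.4 FPKM in IUA, at 43.6, 48.9 and 52.1 FPKM with control MSCs and at 63.3, 54.8 and 52.2 FPKM with primed MSCs. The lowest primed library was just above the highest control MSC library. Psmb10 rose by 0.64 ± 0.11 in IUA against Sham (adjusted p = 0.00051) and by 0.96 ± 0.11 with primed MSCs against Sham (adjusted p = 2.85e-05), and the primed difference from IUA was 0.32 ± 0.11 (adjusted p = 0.0551). With a GC correction that difference was 0.03 (adjusted p = 0.910), against 0.29 for Psmb8 (adjusted p = 0.189) and 0.43 for Psmb9 (adjusted p = 0.162), and on TPM all 3 passed (adjusted p = 0.0251 for Psmb8, 0.0411 for Psmb9 and 0.0253 for Psmb10). The Psmb9 and Tap1 transcripts overlap head to head over 212 exonic bases in the GENCODE annotation, 5.79% of the exonic bases of Psmb9 and 3.87% of those of Tap1.

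Each inducible subunit was set against the constitutive subunit whose place it takes. The constitutive catalytic subunits did not rise together: in IUA against Sham Psmb5 fell by 0.55 ± 0.11 (adjusted p = 0.00135), Psmb7 fell by 0.26 ± 0.09 (adjusted p = 0.0252) and Psmb6 rose by 0.44 ± 0.10 (adjusted p = 0.00311). Under median-ratio scaling, which removes a shift of all genes, Psmb5 changed by -0.15 (adjusted p = 0.274) and Psmb7 by 0.14, and the fall of Psmb7 was also lost without Sham replicate 3 (adjusted p = 0.0750) or IUA replicate 3 (adjusted p = 0.0542). With primed MSCs against IUA Psmb6 fell by 0.45 ± 0.10 (adjusted p = 0.0116), and Psmb5 and Psmb7 changed by -0.08 and 0.005 (adjusted p = 0.617 and 0.973). The 11 shared core subunits of the 20S particle had no call in either comparison (limma, 0 of 11, with 1 at an unadjusted p under 0.05 in each).

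The log2 ratio of Psmb8 to Psmb5 was 0.11, -0.16 and -0.44 in Sham and 1.18, 1.07 and 1.16 in IUA. With control MSCs it was 0.61, 1.02 and 1.21 and with primed MSCs 1.76, 1.70 and 1.35. Thus Psmb8 was at 0.735 to 1.08 times the FPKM of Psmb5 in Sham, and at 2.56 to 3.42 times in the primed group. The mean of the log2 ratios of the 3 pairs was -1.90, -1.99 and -2.30 in Sham, -1.23, -1.14 and -1.22 in IUA, -1.45, -1.16 and -1.06 with control MSCs and -0.34, -0.61 and -0.82 with primed MSCs. Sham was lowest and primed MSCs highest without overlap, while IUA and control MSCs overlapped. The difference was 0.87 in IUA against Sham, 0.60 in primed MSCs against IUA and 0.63 in primed against control MSCs, each with an exact two-sided permutation p of 0.1, the smallest that 3 against 3 libraries can give (0.12 adjusted over the 6 comparisons). Between control MSCs and IUA it was -0.03 (exact permutation p = 0.9). The pair Psmb9 to Psmb6 overlapped between Sham and IUA, and the pair Psmb10 to Psmb7 overlapped between IUA and primed MSCs, so the separation of the mean does not hold in every pair. These comparisons share libraries.

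**Figure D3:**
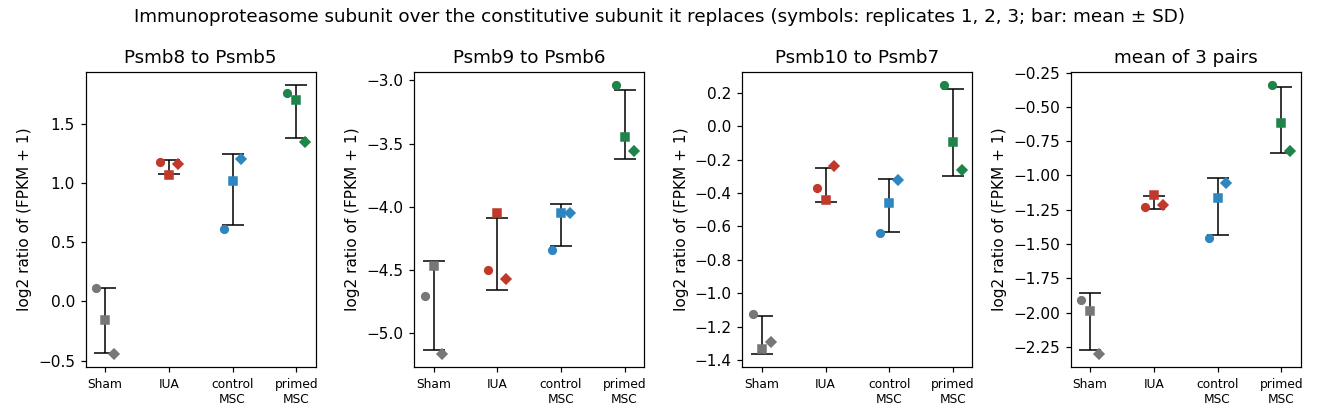
Log2 ratio of (FPKM + 1) of each inducible subunit to the constitutive subunit it replaces, and the mean of the 3 pairs, by library (symbols, replicates 1 to 3; bars, mean ± SD). The mean of the pairs is -2.30 to -1.90 in Sham and -0.82 to -0.34 with primed MSCs, with IUA and control MSCs between them.

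Nlrc5, the coactivator that class I promoters recruit, was the least abundant member. It was at 3.13, 4.71 and 3.12 FPKM in Sham, at 3.97, 3.48 and 3.50 FPKM in IUA, at 4.36, 5.64 and 3.84 FPKM with control MSCs and at 7.15, 5.42 and 6.15 FPKM with primed MSCs. The primed libraries lay above Sham and IUA, and the lowest of them was below the highest control MSC library. Nlrc5 rose by 0.63 ± 0.17 in primed MSCs against IUA (adjusted p = 0.0238) and by 0.65 ± 0.17 against Sham (adjusted p = 0.00597). The first of these calls was lost without primed replicate 1 (0.54, adjusted p = 0.0921), without IUA replicate 2 (adjusted p = 0.0536), IUA replicate 3 (0.0660) or primed replicate 3 (0.0606). In IUA against Sham the change was 0.01 ± 0.17 (adjusted p = 0.947), or 0.04 without IUA replicate 3, with either sign under other settings, in the comparison in which B2m and both heavy chains rose. Under quantile normalization it was 0.48 (adjusted p = 0.0463).

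In counts, 6 of 10 members rose in IUA against Sham (H2-K1, H2-D1, B2m, Psmb8, Psmb9 and Psmb10) and none fell, where 11.1% of all tested genes rose and 45% fell. Those shares are 1291 and 5226 genes, and 2656 rose and 2572 fell under median-ratio scaling. The median change of the members was 0.61, against -0.35 for all tested genes, a shift that median-ratio scaling brought to -0.01, and under that scaling the same 6 genes still passed. With the mean level of the epithelial markers as a covariate none of the 6 passed, while the calls over all genes went from 56.2% to 4.44%. H2-K1 changed by 0.58 (adjusted p = 0.0789), H2-D1 by 0.35 (0.358) and B2m by 0.76 (0.0812). Psmb8 changed by 0.54 (adjusted p = 0.130), Psmb9 by 0.73 (0.201) and Psmb10 by 0.50 (0.113). The summed epithelial markers of Sham and IUA did not overlap, so the covariate and the group can hardly be told apart in this fit. In primed MSCs against IUA 4 of 10 rose (Tap1, Tap2, Tapbp and Nlrc5) and none fell, where 12.2% of all genes rose and 6.97% fell. In that comparison 8 of 10 members were higher in every primed library than in any IUA library, as were 20.1% of all genes. The 4 calls became 2 without IUA replicate 3 (Tap1 and Tap2) and 1 without primed replicate 1 or primed replicate 3 (Tap1), and counted 7 on TPM. The comparisons of IUA against Sham and of primed MSCs against IUA share the IUA libraries.

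**Figure D4:**
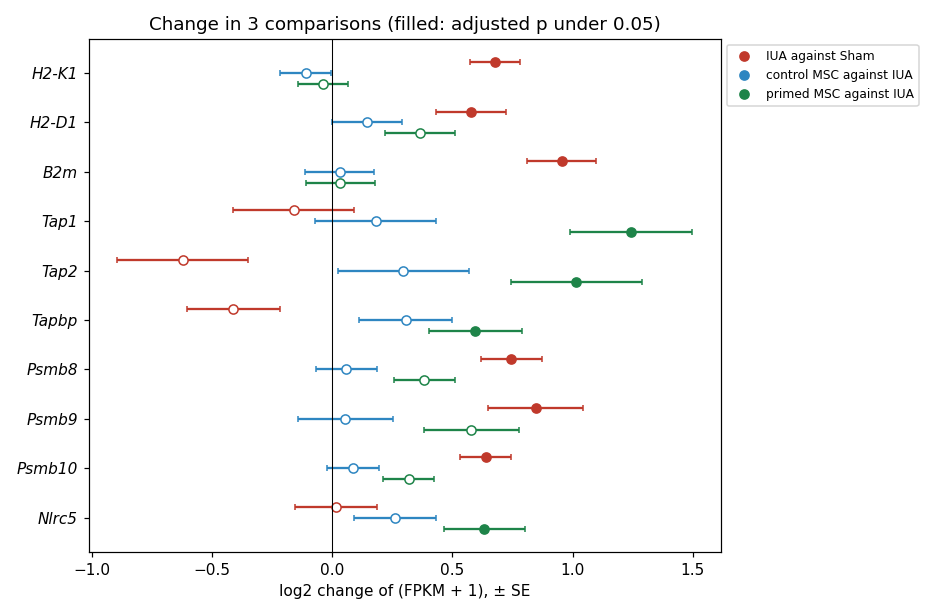
Log2 change ± SE of each member in 3 comparisons (x axis; filled points, adjusted p under 0.05). H2-K1, H2-D1, B2m, Psmb8, Psmb9 and Psmb10 are filled for IUA against Sham, Tap1, Tap2, Tapbp and Nlrc5 for primed MSCs against IUA, and no point is filled for control MSCs against IUA.

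With control MSCs no member passed against IUA (limma, 0 of 10, also 0 at an unadjusted p under 0.05), where 0.853% of all genes passed in either direction, and the changes ran from -0.11 for H2-K1 to 0.31 for Tapbp, which was 0.004 without IUA replicate 3. Against Sham the 6 members that had risen in IUA also rose with control MSCs, where 14.1% of all genes rose, by 0.57 for H2-K1 to 0.99 for B2m. With primed MSCs 8 of 10 rose against Sham, where 14.5% of all genes rose. The exceptions were Tap2 at 0.39 ± 0.27 (adjusted p = 0.228, and 0.0253 where IUA replicate 3 was left out of the model) and Tapbp at 0.19 ± 0.19 (adjusted p = 0.423). Both passed as rises under median-ratio scaling (Tap2 0.79, adjusted p = 0.0285, and Tapbp 0.61, adjusted p = 0.0188). They also passed with a GC correction (Tap2 0.65, adjusted p = 0.0289, and Tapbp 0.43, adjusted p = 0.0260). Under quantile normalization Tap2 passed (0.74, adjusted p = 0.0270). These 3 comparisons with Sham share the Sham libraries. Between primed and control MSCs no member passed (limma, 0 of 10), where 0.112% of all genes passed at the same adjusted threshold. Of the 10, 5 were at an unadjusted p under 0.05 (limma), a threshold for which the share of all genes is not given here. There, 7 of 10 members were higher in every primed library than in any control MSC library, as were 12.3% of all genes, and the changes ran from 0.003 for B2m to 1.06 for Tap1. Leaving IUA replicate 3 out of the model gave 2 calls there, Tap1 and Tap2 (0.72, adjusted p = 0.0261). In the moderated F test over the 4 groups 9 of 10 members passed, all but Tapbp (adjusted p = 0.0778), where 67% of all genes passed.

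**Figure D5:**
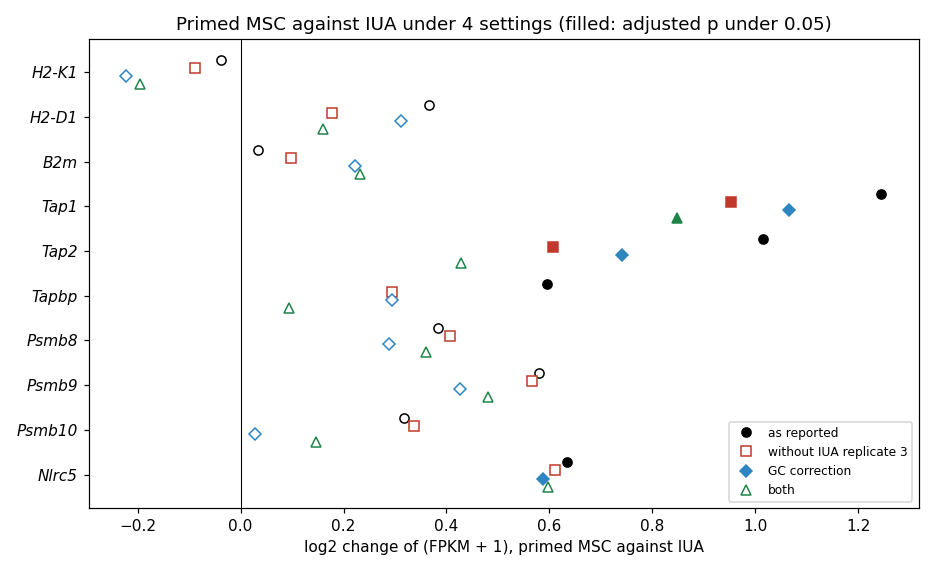
Log2 change of each member in primed MSCs against IUA (x axis) as reported, without IUA replicate 3, with a GC correction and with both (filled points, adjusted p under 0.05). Tap1 is filled in all 4 settings, Tap2 in 3, Nlrc5 in 2 and Tapbp in 1.

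The rest of the pathway was read from lists of related genes. Each count is set beside the shares of all tested genes, which were 11.1% higher and 45% lower in IUA against Sham, and 12.2% higher and 6.97% lower in primed MSCs against IUA. Of 13 tested other class I and class I-like heavy chains, 7 rose and 1 fell in IUA against Sham, with a list median of 0.51 against -0.35 for all genes. They include H2-M3, which presents bacterial formyl peptides (0.90 ± 0.14, adjusted p = 0.0003), and Hfe, a class I-like regulator of iron uptake (0.74 ± 0.14, adjusted p = 0.000978). In primed MSCs against IUA none of the 13 rose and 3 fell (list median -0.24), among them Mr1, which shows microbial vitamin B metabolites to T cells (-0.82 ± 0.18, adjusted p = 0.00958), and H2-Q6 (-0.83 ± 0.21, adjusted p = 0.0187), a gene with near-identical copies. The call of H2-Q6 was lost without primed replicate 2 (adjusted p = 0.0722) or primed replicate 3 (adjusted p = 0.0565). H2-K1 and B2m did not pass in that comparison either. Of 9 genes of peptide trimming and loading, 1 rose and 3 fell in IUA against Sham, and 1 rose and 1 fell in primed MSCs against IUA. The rises are near the share of all genes in both comparisons, and the falls in IUA are fewer than that share. The chaperones that hold the heavy chain in turn moved apart in primed MSCs against IUA: Calr (calreticulin) rose by 0.47 ± 0.10 (adjusted p = 0.0102) and Canx (calnexin) fell by 0.46 ± 0.14 (adjusted p = 0.0380). The call of Canx was lost in 6 of the 12 fits that left out a library, and the change was -0.27 without IUA replicate 3 (adjusted p = 0.0835). In IUA against Sham Canx rose by 0.54 ± 0.14 (adjusted p = 0.00602) and Uggt1, the glucosyltransferase of glycoprotein quality control, fell by 0.56 ± 0.14 (adjusted p = 0.00548), which was -0.17 under median-ratio scaling (adjusted p = 0.295).

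Among 10 proteasome activators and assembly factors, 1 rose and 3 fell in IUA against Sham, no more than the shares of all genes. The one that rose was Psme2 (0.46 ± 0.12, adjusted p = 0.00647), a subunit of the PA28 cap that interferon-gamma induces, at 158 ± 7.06 FPKM in Sham and 218 ± 17.9 FPKM in IUA (SD, n = 3, limma). Its partner Psme1 changed by -0.07 ± 0.10 (adjusted p = 0.561), a value of either sign under other scalings. Psme1 passed as a rise under median-ratio scaling (0.33, adjusted p = 0.0221) and with a GC correction (0.35, adjusted p = 0.0227). Psme3, the nuclear activator, fell by 0.64 ± 0.14 (adjusted p = 0.00242), or -0.24 under median-ratio scaling (adjusted p = 0.172). Between primed MSCs and IUA 1 of the 10 passed, Psme4, which fell by 0.70 ± 0.15 (adjusted p = 0.00901), and Psme2 was at 256 ± 17.2 FPKM (change 0.23 ± 0.12, adjusted p = 0.187).

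The regulators of class I transcription moved unevenly. Of the 12 tested and reported, none rose and 6 fell in IUA against Sham, which is near the 45% of all genes that fell. In primed MSCs against IUA 2 rose, Irf8 and Rela, and none fell. Irf8, a myeloid interferon regulatory factor, was at 35.2 to 48.2 FPKM in IUA and at 61.8 to 78.5 FPKM with primed MSCs, a rise of 0.78 ± 0.14 (adjusted p = 0.004). Rela, a subunit of NF-kB, was at 71.0 to 96.1 FPKM in Sham, at 44.9, 45.4 and 17.1 FPKM in IUA and at 61.1 to 73.5 FPKM with primed MSCs. It fell by 1.31 ± 0.30 in IUA against Sham (adjusted p = 0.00299) and rose by 1.05 ± 0.30 in primed MSCs against IUA (adjusted p = 0.0299). Without IUA replicate 3 these changes were -0.86 and 0.60, both past the threshold, and the second call was lost without any of the primed libraries (adjusted p = 0.0570 to 0.0904). Irf1, which interferon-gamma induces, varied within groups (18.4 to 36.4 FPKM in IUA and 18.3 to 39.1 FPKM with primed MSCs) and did not pass in either comparison (-0.11 ± 0.27 and 0.0004 ± 0.27, adjusted p = 0.734 and 0.999). Irf2 fell by 0.83 ± 0.15 (adjusted p = 0.000846) and Rfx5, a subunit of the X box binding complex, fell by 0.55 ± 0.15 (adjusted p = 0.00842) in IUA against Sham, and under median-ratio scaling Rfx5 changed by -0.26 (adjusted p = 0.165). Rfx5 changed by 0.12 ± 0.15 in primed MSCs against IUA (adjusted p = 0.588).

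Transcripts of interferon-gamma itself were near 0 in all groups: Ifng was at 0.24 to 0.60 FPKM in Sham, 0.29 to 0.34 in IUA, 0.09 to 0.34 with control MSCs and at 0.08, 0.08 and 0 FPKM with primed MSCs. These levels were under the filter and were not tested. Of 8 tested interferon ligands, receptors and kinases, 3 rose and 3 fell in IUA against Sham, among them Ifnar2 (0.60 ± 0.10, adjusted p = 0.00042). Between primed MSCs and IUA 2 rose and none fell, the receptor chain Ifnar1 (0.49 ± 0.13, adjusted p = 0.0249) and the kinase Tyk2 (0.60 ± 0.14, adjusted p = 0.0151, at 1.61 and 2.92 FPKM on average). Ifnar1 lost its call without IUA replicate 3 (0.33) or without any of the primed libraries, and Tyk2 without primed replicate 2 or 3. Of 16 interferon-gamma-induced genes tested and reported, 4 fell and 1 rose in IUA against Sham, falls below the 45% of all genes. The one that rose was Cxcl9, a chemokine for T cells, from 1.24 to 9.23 FPKM on average (2.19 ± 0.20, adjusted p = 1.55e-05). In primed MSCs against IUA none of the 16 passed (limma, 0 of 16, with 1 at an unadjusted p under 0.05). Between primed and control MSCs none of the 16 passed either (limma). Of these, 12 were at an unadjusted p under 0.05, a threshold for which the share of all genes is not given here. The list median there was 0.66, against -0.03 for all tested genes. With control MSCs against Sham 12 of the 16 fell and 1 rose (list median -0.92), where 4960 of 11604 tested genes fell and 1632 rose. Of 9 tested class II presentation genes 4 rose in IUA against Sham, led by the peptide exchange factor H2-DMa (1.00 ± 0.13, adjusted p = 0.000139), and none passed in primed MSCs against IUA (limma, 0 of 9, with 3 at an unadjusted p under 0.05).

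Among all tested genes, those whose profile over the 12 libraries was nearest to a member were listed by the mean absolute difference of centred log2 values. For Psmb9 the nearest was another member, Psmb8 (0.13), followed by Ankrd44 (0.14), Trps1 (0.17) and Got1 (0.17). For H2-K1 the nearest were Pde4b (0.07), Smim3 (0.08), Eri1 (0.09) and Epb41l2 (0.09), and H2-D1 ranked at place 137. For Nlrc5 they were Dot1l (0.11), Rin3 (0.12), Sh3pxd2b (0.13) and Fos (0.13), and the nearest member, H2-D1, ranked at place 624. Seen from Tap1, Tap2 ranked at place 11 of all genes, while seen from Tap2, Tap1 ranked at place 223. Psmb9, whose RefSeq start lies 226 bases from that of Tap1, ranked at place 1034 seen from Tap1.

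Markers of other cells that could carry class I RNA are given as summed FPKM. T cell markers were at 8.34 to 12.7 in Sham, 8.59 to 14.5 in IUA, 6.79 to 11.9 with control MSCs and 4.84 to 5.99 with primed MSCs, and Cd3e reached 0.42 FPKM at most. NK cell markers were at 39.9 to 70.7, 27.3 to 39.8, 8.26 to 49.8 and 15.0 to 16.7 in the same order, and Ncr1 reached 0.99 FPKM at most. Dendritic cell markers were at 76.2 to 98.2 in Sham, 47.4 to 86.9 in IUA, 34.6 to 51.2 with control MSCs and 40.0 to 52.6 with primed MSCs. Neutrophil markers were at 41.2 to 91.4 in Sham, 326 to 432 in IUA, 683 to 1103 with control MSCs and 355 to 1396 with primed MSCs. In IUA against Sham they thus moved in the direction of those members that rose, and not of Tap1, Tap2, Tapbp and Nlrc5, which did not pass. Endothelial markers summed to 220 to 388 in Sham, 104 to 138 in IUA, 99.4 to 148 with control MSCs and 90.8 to 107 with primed MSCs, and all 10 fell in IUA against Sham and 2 in primed MSCs against IUA. Markers of endometrial stroma were at 464 to 909, 284 to 903, 143 to 262 and 113 to 238 in the same order, with 4 of 9 tested lower in the first comparison and 2 in the second. Smooth muscle markers were at 388 to 1370, 277 to 357, 101 to 199 and 145 to 250, with 5 of 8 and then none lower. B and plasma cell markers were at 10.1 to 20.3, 15.15 to 54.8, 14.4 to 32.0 and 13.1 to 20.1. Of 4 tested, 2 rose in the first comparison, where 11.1% of all tested genes rose, and none passed in the second. Eosinophil markers were at 2.79 to 3.87, 3.62 to 8.15, 2.20 to 3.11 and 1.88 to 2.39. Of 2 tested, none passed in the first comparison and 2 fell in the second. Of all tested genes 45% fell in IUA against Sham and 6.97% in primed MSCs against IUA. The count of stromal markers in the first comparison is near that share. The part of these markers, and of the macrophage markers given above, in the members' results was not tested.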

How the data were processed

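RNA of F4/80-positive endometrial cells was sequenced in 12 libraries, 3 per group. The table the authors deposited gives 22294 genes as FPKM. The tools in the submitters' processing notes, unversioned, are HISAT2, fastp, RSEM, StringTie and DESeq2, with the build mm10. FPKM is relative to the library total, so a change in abundant genes moves all others. Depth is unknown, and libraries were polyA-selected without strand marking, per the labels' protocols.

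Log2(FPKM + 1) was fitted with limma 3.58.1 (R 4.3.3): 1 mean per group, all 12 libraries, a variance trend and Benjamini-Hochberg adjustment over 11604 genes; 6 comparisons and a moderated F test were drawn. The script was tested on simulated data. Ratios were tested by exact permutation. Transcript GC, overlaps and shared 50-base stretches came from GENCODE models of mm10, and promoters from RefSeq. Named were all members, up to 4 genes per list and comparison with the smallest p, fixed subunits and regulators, and the 4 nearest profiles of H2-K1, Psmb9 and Nlrc5, leaving out predicted and receptor-segment symbols. Of the listed genes, 1 is not reported here and stays out of list counts. Members and lists were chosen with earlier results of these data known. Alternatives changed the scaling, pseudocount, filter, model, covariates and libraries.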

Additional observations from a re-analysis of the deposited data

How the results depend on the processing

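Depth is unknown and IUA replicate 3 differs in GC trend. Counts of members changed moved as follows. With the epithelial covariate 0 passed in IUA and in control MSCs against Sham, 2 in primed MSCs against Sham and 2 in the F test. Requiring a log2 change of at least 1 left 0, 0 and 3 of the Sham comparisons and 2 in primed MSCs against IUA. In primed MSCs against IUA TPM gave 7, an adjusted p under 0.1 gave 8, array weights gave 2 and leaving out one library gave 1 to 5; the GC correction together with leaving out IUA replicate 3, chosen after seeing the data, gave 1. In primed against control MSCs array weights gave 1, the compared groups alone 1, leaving out one library 0 to 2 and the GC correction without IUA replicate 3 gave 1. The causes were not tested.

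Of 18 same-numbered pairs of libraries, 3 had deviations correlated over 0.1 (range -0.29 to 0.29). With 3 libraries per group, deviations from the group mean depend on each other, so whether replicate numbers pair libraries was not settled. With a replicate block the members called in primed MSCs against IUA were 3, without Tapbp (adjusted p = 0.0550).

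Values that changed sign were these. Under median-ratio scaling, in IUA against Sham, Tap1 was 0.23, Psmb7 0.14, Psme1 0.33 (adjusted p = 0.0221) and Irf1 0.28, and Tap2 in control MSCs against Sham was 0.0231. Under quantile normalization Tap1 was 0.18, Psme1 0.0553 and Irf1 0.20 in IUA against Sham, Tap2 0.0266 in control MSCs against Sham, and H2-K1 0.11 and Irf1 -0.0389 in primed MSCs against IUA. With the GC correction Tap1 was 0.32, Tapbp 0.13, Psme1 0.35 (adjusted p = 0.0227) and Irf1 0.35 in IUA against Sham, Tap2 0.0193 in control MSCs against Sham and Irf1 -0.15 in primed MSCs against IUA. With that correction and without IUA replicate 3 Tap1 was 0.53, Tap2 0.21, Tapbp 0.33 (adjusted p = 0.0252), Psmb7 0.0156, Psme1 0.24 and Irf1 0.51 in IUA against Sham, Tap2 0.0203 in control MSCs against Sham, Tapbp -0.0824 in control MSCs against IUA and Irf1 -0.31 in primed MSCs against IUA. With array weights Nlrc5 was -0.12 and Irf1 0.0853 in IUA against Sham, B2m -0.0271 in primed against control MSCs, and Psmb7 -0.0171 and Irf1 -0.18 in primed MSCs against IUA. With the epithelial covariate Psme1 was 0.17 and Irf1 0.0883 in IUA against Sham, and B2m -0.000509 in primed against control MSCs. On TPM Nlrc5 was -0.0812 in IUA against Sham and H2-K1 0.0176 in primed MSCs against IUA, and with a pseudocount of 0.1 Irf1 was -6.91e-05 in the latter. None of these had passed as reported except Psmb7.

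Leaving out one library at a time also gave both signs. Values ran from -0.0668 to 0.0497 for B2m in primed MSCs against control MSCs, -0.0208 to 0.0976 for B2m in primed MSCs against IUA, -0.12 to 0.0178 for H2-K1 in primed MSCs against IUA, -0.35 to 0.12 for Irf1 in IUA against Sham. They ran from -0.29 to 0.24 for Irf1 in primed MSCs against IUA, -0.0643 to 0.17 for Nlrc5 in IUA against Sham, -0.0501 to 0.0666 for Psmb7 in primed MSCs against IUA, -0.13 to 0.0188 for Psme1 in IUA against Sham, -0.35 to 0.13 for Tap1 in IUA against Sham.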

Other observations

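In ratios looked at after the values had been seen, B2m stood at 0.924 to 1.15 times the summed FPKM of H2-K1 and H2-D1 in Sham, at 1.04 to 1.73 times in IUA, at 1.18 to 1.36 times with control MSCs and at 1.08 to 1.17 times with primed MSCs. The highest of these, 1.73, was IUA replicate 3, in which B2m was the highest and H2-D1 the lowest of its group. Tap1 stood at 1.64 to 2.20 times the FPKM of Tap2 in Sham, 2.47 to 3.56 times in IUA, 2.40 to 2.68 times with control MSCs and 2.77 to 3.42 times with primed MSCs. These subunits form a pair in the transporter, and their ratio in every Sham library was below that of every other library. The members' transcripts had a GC content of 52.6% to 58.9% except for B2m at 41.2%, against a median of 50.4% for tested genes.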
